A study of Mus musculus with 36 samples.

Results

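The circadian clock genes described here are Arntl, Npas2, Per1, Per2, Per3, Ciart, Nr1d1, Nr1d2, Dbp and Tef, measured in mouse liver on Illumina MouseWG-6 v2.0 beadchips. They were chosen as all probes whose platform annotation gives 1 of these 10 symbols, which yielded 19 of the 45281 probes on the array, 10 of the 19057 genes that its single-symbol probes name. Of these, 14 probes of 9 genes entered the tests, together with 17907 of all probes, because they were detected (detection p-value below 0.05) on at least 6 of the 36 arrays. Each array held the liver RNA of 1 male mouse aged 20 weeks, of the strain C57BL/6J in the sample labels and C57BL/6JBomTac in the series design. For 13 weeks, 6 mice each were kept on a high-fat diet (45% of energy as fat) in which freeze-dried lingonberry, blackcurrant, bilberry or açai made up 20% by weight, on the high-fat diet alone, or on a low-fat diet (10% of energy as fat). No genetic change is named in the labels. The sources used here give neither the hour at which the livers were taken nor the light schedule.

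The mammalian clock is a loop of transcription and its own repression that runs in most cells of the body. ARNTL (also called BMAL1) pairs with CLOCK or NPAS2 and activates genes that carry E-box sequences, among them those of the PER and CRY repressors, which then block the pair. A further arm is formed by the REV-ERB receptors, encoded by Nr1d1 and Nr1d2, which repress Arntl, and the outputs DBP and TEF bind D-box sequences and drive rhythmic liver genes. In mouse liver over a day, Arntl RNA peaks at about the opposite phase from Dbp and the Per genes.

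The E-box (CACGTG), the D-box (TTATGNAA) and the response element of the ROR and REV-ERB receptors, whose core is TAGGTCA, were looked for on both strands in the RefSeq promoter windows of build GRCm38.p6, which run from 250 bases before a gene's start to 50 after it. Of the members, 9 genes had 12 windows. Per2 had no window and was not searched. The E-box occurred in 4 of these windows, belonging to Per1, Tef (both windows) and Ciart, and in 7.15% of all 32851 windows. The D-box occurred in 2 of them, those of Per1 and Per3, against 3.38% of all windows. The receptor element occurred in 1, of Arntl, against 0.219% of all windows, and the core alone, which overlaps it, in the same 1 window, against 2.61% of all windows. No such match lay in the windows of Npas2, Nr1d1, Nr1d2 or Dbp, and the cyclic AMP response element TGACGTCA, found in 1.79% of all windows, lay in none of the 12. The windows of 4 of the 5 members with matches are shown, so that each element can be seen at least once beside Ciart and Arntl, the tightest pair below; capitals mark the matches. The Ciart window (chr3:95882179-95882478, minus strand) has its 3 E-boxes 116, 58 and 44 bases before the start. The Per1 window (chr11:69098699-69098998, plus strand) has an E-box 166 and a D-box 24 bases before the start. The Per3 window (chr4:151044616-151044915, minus strand) has D-boxes 205 and 158 bases before the start, and the Arntl window (chr7:113207261-113207560, plus strand) has the receptor element 27 bases after it.
Ciart: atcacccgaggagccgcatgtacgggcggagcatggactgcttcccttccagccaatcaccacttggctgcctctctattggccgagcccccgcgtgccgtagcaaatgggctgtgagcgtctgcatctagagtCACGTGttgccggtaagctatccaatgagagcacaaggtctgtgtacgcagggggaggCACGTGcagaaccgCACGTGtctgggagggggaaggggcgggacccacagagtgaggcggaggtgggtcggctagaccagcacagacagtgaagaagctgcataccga
Per1: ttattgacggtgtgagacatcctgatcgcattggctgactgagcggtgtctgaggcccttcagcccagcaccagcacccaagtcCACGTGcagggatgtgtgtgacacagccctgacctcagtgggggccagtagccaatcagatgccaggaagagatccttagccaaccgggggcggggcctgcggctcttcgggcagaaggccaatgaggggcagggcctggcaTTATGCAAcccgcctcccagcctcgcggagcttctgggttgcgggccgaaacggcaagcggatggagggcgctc
Per3: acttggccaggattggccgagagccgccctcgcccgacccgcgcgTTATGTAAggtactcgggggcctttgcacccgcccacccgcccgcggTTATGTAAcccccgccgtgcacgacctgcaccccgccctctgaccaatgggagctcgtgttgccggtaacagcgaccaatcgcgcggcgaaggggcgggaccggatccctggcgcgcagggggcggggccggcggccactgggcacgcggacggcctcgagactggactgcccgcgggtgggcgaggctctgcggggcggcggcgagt
Arntl: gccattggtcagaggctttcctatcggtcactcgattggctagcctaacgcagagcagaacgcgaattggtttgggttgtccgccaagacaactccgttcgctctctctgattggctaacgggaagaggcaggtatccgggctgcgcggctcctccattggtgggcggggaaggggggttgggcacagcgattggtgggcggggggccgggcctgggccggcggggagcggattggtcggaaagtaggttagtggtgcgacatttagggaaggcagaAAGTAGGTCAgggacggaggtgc
A match is a run of letters in these windows and was not tested as a binding site.

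The arrays were even in quality: between 14240 and 15670 probes were detected per array, and each array correlated with the other arrays at a median of 0.975 to 0.986. The 6 chips held 1 liver of each diet apiece, and since a diet kept its place on all chips, place and diet cannot be told apart. The replicate number of a mouse is the number of its chip. The tissue was checked against its markers: all 8 hepatocyte markers were detected, and their mean log2 level spanned 10.97 to 11.55 over the livers. Pancreatic acinar markers (9 of 10 on the array, all 9 detected) had a median log2 level of 6.03 over the livers; the highest liver stood at 10.03 on lingonberry, 8.31 on blackcurrant, 8.82 on bilberry, 9.62 on açai, 6.16 on high fat and 8.17 on low fat. In deviations from the diet means their correlation with Arntl was 0.103 and with Dbp -0.127. Of the other cell types looked at, cholangiocyte markers (4 of 5 on the array, of which 1 was detected in at least 6 livers; mean level 4.76 to 5.30) had r = 0.439 with Arntl and -0.433 with Dbp. Stellate cell markers (4 of 5 detected; 6.82 to 7.42) had 0.207 and -0.264, and erythroid markers (3 of 3; 11.12 to 12.16) 0.0185 and -0.24. For hepatocyte, Kupffer, endothelial, neutrophil, lymphocyte and adipocyte markers r lay between -0.177 and 0.117 with Arntl and between -0.183 and 0.0911 with Dbp. The part of these cells in the clock gene results was not tested. In RNA of whole liver, fewer cells of a type and less RNA per cell cannot be told apart.

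Levels are log2 values after background correction and quantile normalization, and a probe's level is set only against its own level in other livers. Arntl, the activator of the loop, was detected on 27 of 36 arrays. It lay between 4.41 and 5.93 (median 5.02) on lingonberry, 4.46 and 5.75 (4.77) on blackcurrant, 4.46 and 5.35 (4.96) on bilberry, 4.48 and 5.63 (4.92) on açai, 4.52 and 5.57 (4.82) on high fat, and 4.98 and 6.34 (5.43) on low fat. The low-fat livers were the highest on average and the only ones in which all 6 arrays detected the probe, yet their range overlapped that of every other diet. In lingonberry replicates 1 to 3 Arntl stood at 5.93, 5.76 and 5.32, and in replicates 4 to 6 at 4.72, 4.41 and 4.67. Npas2, whose product can replace CLOCK as the partner of ARNTL, was detected on 0 of 36 arrays (1 probe) and was not tested.

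Among the repressors, Ciart, which encodes an inhibitor of the CLOCK and ARNTL pair, varied most. At its brightest probe it lay between 4.86 and 7.97 (median 6.73) on lingonberry, 6.36 and 7.84 (7.07) on blackcurrant, 5.63 and 7.19 (6.51) on bilberry, 6.29 and 8.24 (7.63) on açai, 6.53 and 8.16 (7.47) on high fat, and 5.11 and 7.29 (6.31) on low fat. The ranges of all 6 diets overlapped. The lingonberry livers fell into 3 low values of 4.86, 5.59 and 5.98 and 3 high values of 7.84, 7.48 and 7.97, and the 3 low values came from the livers with the high Arntl values. Over all livers the level spanned 10.4-fold at this probe, which was detected in each, and the 3 Ciart probes followed each other with r of 0.953, 0.905 and 0.875 over the 36 arrays.

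Per2, a core repressor, lay between 5.75 and 7.14 (median 6.59) on lingonberry, 5.91 and 7.90 (6.81) on blackcurrant, 6.74 and 7.38 (7.19) on bilberry, 6.36 and 7.76 (7.27) on açai, 6.84 and 7.89 (7.66) on high fat, and 6.34 and 7.34 (6.71) on low fat. The high-fat livers had the highest mean, 7.52 ± 0.41 (SD, n = 6), and the lingonberry livers the lowest, 6.48 ± 0.56 (SD, n = 6). The blackcurrant livers split by replicate number, with replicates 1 to 3 at 7.58, 7.53 and 7.90 and replicates 4 to 6 at 5.91, 6.09 and 5.95. On açai, replicates 1 to 3 (7.76, 7.70 and 7.52) also lay above replicates 4 to 6 (6.57, 6.36 and 7.02). The other diets had no such cut in Per2. Per1, a repressor that also responds to hormones and feeding signals, averaged 6.26 ± 0.67 on bilberry, 6.86 ± 0.35 on high fat and 6.36 ± 0.86 on low fat (SD, n = 6 each), and all diets overlapped. Per3, a member of the family with a lesser part in the loop, was near the detection limit: its tested probe was detected on 6 of 36 arrays, the least that the filter allows, and its other probe on 0. Diet means of Per3 stayed between 4.42 and 4.66.

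Nr1d1, the gene of the receptor REV-ERB alpha, was detected on 34 of 36 arrays. It lay between 5.20 and 6.41 (median 5.74) on lingonberry, 4.98 and 5.69 (5.31) on blackcurrant, 5.20 and 6.09 (5.57) on bilberry, 4.39 and 5.80 (5.13) on açai, 4.60 and 5.95 (5.19) on high fat, and 5.53 and 6.95 (5.97) on low fat. The low-fat livers were mostly above the others, but the lowest low-fat liver, at 5.53, was below the highest of each other diet. Nr1d2, which encodes the related receptor REV-ERB beta, was even across the diets, with means from 8.70 on blackcurrant to 8.93 on bilberry, between which the other 4 diets lay.

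Dbp, the output factor named for its binding to the albumin promoter, lay between 10.86 and 11.76 (median 11.32) on lingonberry, 9.73 and 11.95 (11.11) on blackcurrant, 11.38 and 11.83 (11.71) on bilberry, 10.90 and 11.93 (11.59) on açai, 11.09 and 12.03 (11.71) on high fat, and 10.48 and 11.48 (11.07) on low fat. The bilberry livers were the tightest (SD 0.18) and the blackcurrant livers the widest (SD 0.96). Blackcurrant replicates 1 to 3 stood at 11.95, 11.95 and 11.60, and replicates 4 to 6 at 9.73, 10.62 and 10.17. Tef, a related output factor, had diet means of 8.26, 8.08, 8.45, 8.45 and 8.43 on lingonberry, blackcurrant, bilberry, açai and high fat, and 7.90 on low fat. The range of Tef over all livers was 7.16 to 9.05. A weaker Tef probe, detected on 5 arrays, fell just outside the filter.

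**Figure D1:**
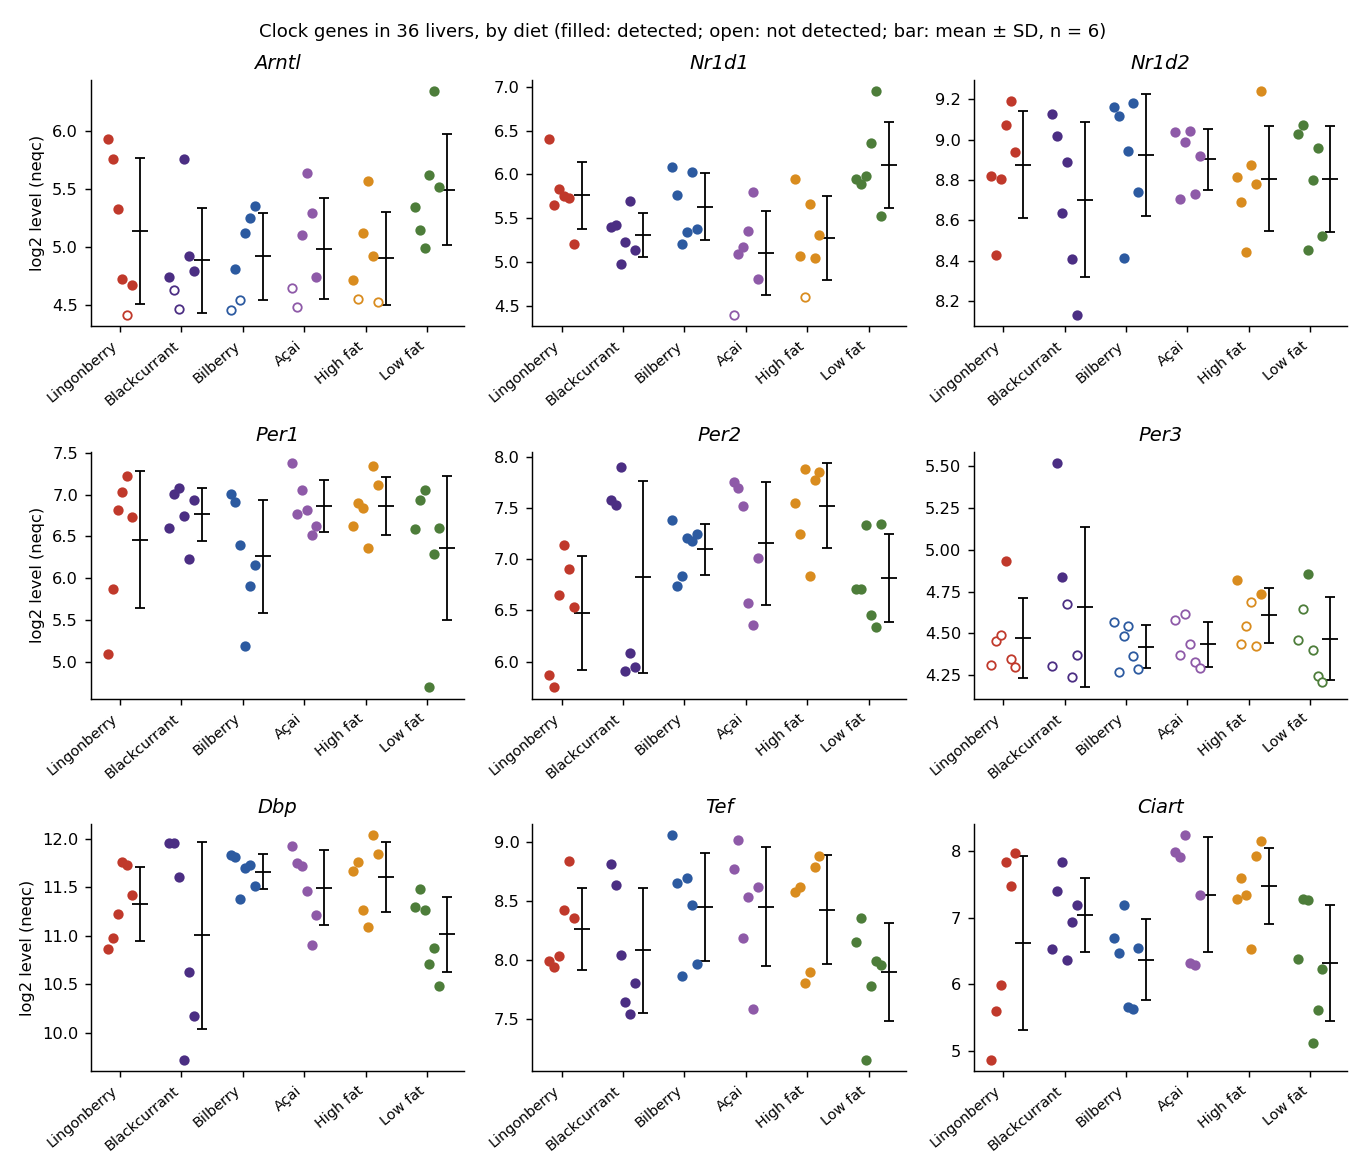
Log2 level (y axis) of the brightest probe of each of 9 clock genes in every liver, by diet (x axis), with 6 mice per diet; filled points were detected, open points were not, and bars give the mean ± SD. Nr1d1 and Arntl have their highest means in the low-fat livers, and the Dbp and Per2 values on blackcurrant split into a high and a low trio. The high trio is replicates 1 to 3 and the low trio replicates 4 to 6.

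Across the 6 diets, Nr1d1 was the only member whose level differed by the moderated F-test of limma (adjusted p = 0.01475), 1 of 14 member probes beside 8.03% of all probes tested. Next came Per2 (adjusted p = 0.175) and a Ciart probe (0.177). P-values were adjusted by the Benjamini-Hochberg method over all tested probes.

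On high fat, Nr1d1 averaged 5.27 ± 0.48, against 6.11 ± 0.49 on low fat (SD, n = 6 each), a log2 difference of -0.84 ± 0.23 (SE) or 0.559-fold (limma, adjusted p = 0.0286). The high-fat liver was higher than the low-fat liver of the same chip on 0 of 6 chips, with differences from -1.91 to -0.0019. This made 1 of 14 member probes called, beside 3.31% of all probes. The call was lost without high-fat replicates 2, 3 or 5 (adjusted p = 0.0664, 0.0988 and 0.0742) or low-fat replicates 4 or 5 (0.0728 and 0.104), in a fit to the 12 arrays of these diets alone (0.0834), and with all probes tested (0.0849). Without background correction the difference was -0.35 (adjusted p = 0.0354), and with the normexp correction at an offset of 50 it was -0.45 (0.0316). At an unadjusted p below 0.05 stood 9 of the 14 probes, of Per2, Arntl, Nr1d1, Dbp, Tef and Ciart, beside 15.4% of all probes. These 9 include 3 probes of Ciart and both of Per2, so they are not separate genes.

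In the same comparison Ciart averaged 7.48 ± 0.57 on high fat and 6.31 ± 0.87 on low fat (SD, n = 6 each), a log2 difference of 1.16 ± 0.44 (SE, limma adjusted p = 0.156). Per2 differed by 0.71 ± 0.30 (adjusted p = 0.226), Dbp by 0.59 ± 0.27 (0.267) and Tef by 0.53 ± 0.24 (0.278), each higher on high fat on 6 of 6 chips. Arntl differed by -0.59 ± 0.25 (adjusted p = 0.221) and was higher on high fat on 1 of 6 chips. None of these passed the threshold. Nr1d2 differed by 0.0025 ± 0.16 (adjusted p = 0.996).

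Nr1d1 was also lower on 2 of the berry diets than on low fat. On açai it averaged 5.10 ± 0.48, against 6.11 ± 0.49 on low fat (SD, n = 6 each), a difference of -1.01 ± 0.23 (SE) or 0.496-fold (limma, adjusted p = 0.00328; higher on 0 of 6 chips), and this call held without each of the 12 arrays in turn (adjusted p up to 0.0169); without background correction the difference was -0.41 (0.00572). It was 1 of 14 member probes, beside 6.47% of all probes. On blackcurrant Nr1d1 averaged 5.31 ± 0.25, against the same low-fat livers, a difference of -0.80 ± 0.23 (adjusted p = 0.0463; higher on 0 of 6 chips), again 1 of 14 beside 2.31% of all probes. That call was kept in only 3 of the 12 fits that leave out 1 array; it was lost without blackcurrant replicates 2, 3, 4 or 6 (adjusted p = 0.0653, 0.105, 0.092 and 0.0944) or low-fat replicates 1, 2, 3, 4 or 5 (0.0654, 0.0553, 0.0596, 0.103 and 0.153), and with all probes tested (0.131), while without background correction the difference was -0.34 (0.045). Bilberry (-0.48 ± 0.23, adjusted p = 0.392) and lingonberry (-0.35 ± 0.23, adjusted p = 0.515) differed from low fat by amounts that did not pass, with 0 of 14 member probes called beside 1.61% and 3.28% of all probes. Whether the diets differ in how far Nr1d1 lies below low fat was tested directly between berries: açai minus lingonberry gave -0.66 ± 0.23 (adjusted p = 0.106), with 0 of 14 called beside 3.35% of all probes. With the chip as a block its adjusted p was 0.0466, and 1 of 14 was called beside 5.25% of all probes; without açai replicate 5, too, 1 of 14 was called in this comparison. The other pairs of a berry diet called and one not called against low fat did not pass by limma either. Açai minus bilberry gave -0.53 ± 0.23 (limma, adjusted p = 0.378), lingonberry minus blackcurrant 0.45 ± 0.23 (0.439) and blackcurrant minus bilberry -0.33 ± 0.23 (0.712). The comparisons with low fat share the low-fat livers, and those between berries share berry livers. A faint Ciart probe, detected in 6 of 6 açai livers but 2 of 6 low-fat livers, differed by 0.98 on the measured scale between açai and low fat (adjusted p = 0.0788, and 0.0357 with the chip as a block, where 2 of 14 were called beside 10.2% of all probes); it also passed without açai replicates 4 or 5 (0.0326 and 0.0282) or low-fat replicate 3 (0.0262).

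No member was called between a berry diet and high fat alone. Per2 came nearest: it averaged 6.48 ± 0.56 on lingonberry and 7.52 ± 0.41 on high fat (SD, n = 6 each), a difference of -1.05 ± 0.30 (SE, limma adjusted p = 0.0569) and higher on lingonberry on 1 of 6 chips. With the chip as a block the adjusted p was 0.0388, 1 of 14 called beside 4% of all probes, and in a fit to these 12 arrays alone 0.0263. Without lingonberry replicate 4 or high-fat replicate 4 it was 0.0322 and 0.0346, and over all 12 arrays left out in turn it lay between 0.0322 and 0.16. The other Per2 probe differed by -0.86 (adjusted p = 0.0808), and by the same amount in the fit to the 12 arrays, where it passed (0.0456); it also passed without lingonberry replicate 4 (0.0433) or high-fat replicate 4 (0.0427). By limma 0 of 14 member probes were called on lingonberry, blackcurrant, bilberry and açai against high fat, beside 2.25%, 0.134%, 0.38% and 0.0447% of all probes, and 3, 3, 3 and 0 of the 14 had an unadjusted p below 0.05, beside 14.1%, 8.67%, 7.83% and 6.06% of all probes.

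Between berries, 0 of 14 member probes were called by limma for açai against blackcurrant (beside 1.76% of all probes), açai against bilberry (0.771%), lingonberry against blackcurrant (0.983%), lingonberry against bilberry (0.246%) and blackcurrant against bilberry (0.212%). At an unadjusted p below 0.05 stood 0, 4, 0, 2 and 1 of the 14 in these 5 comparisons, beside 12.9%, 10.2%, 11.5%, 8.79% and 9.35% of all probes. The same count was 2 for açai against lingonberry (15.8% of all probes), and against low fat it was 0 for lingonberry (14.4%), 2 for blackcurrant (14.7%), 4 for bilberry (11.7%) and 6 for açai (19.3%).

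The livers of the 2 diets overlapped for every member probe in all 15 comparisons. Of all tested probes, 1.61% did not overlap between high fat and low fat. Lingonberry, blackcurrant, bilberry and açai did not overlap with high fat in 1.7%, 0.352%, 0.849% and 0.413% of all probes, and with low fat in 1.99%, 1.15%, 1.53% and 3.1%. Between berries the share was 2.71% for açai against lingonberry, 1.42% against blackcurrant and 1.32% against bilberry, 0.927% for lingonberry against blackcurrant, 0.843% against bilberry, and 0.452% for blackcurrant against bilberry.

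**Figure D2:**
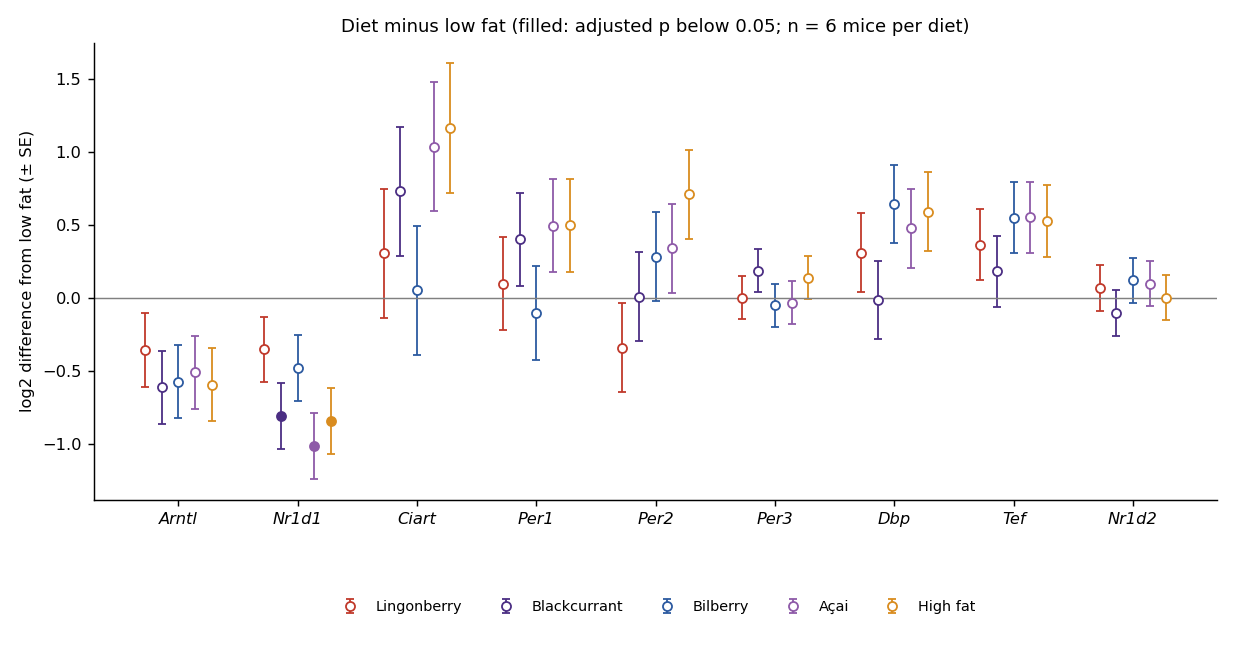
Log2 difference from low fat (y axis, ± SE) of 9 clock genes (x axis) on the 4 berry diets and on high fat, with 6 mice per diet; filled points have an adjusted p below 0.05. The 3 filled points are Nr1d1 on blackcurrant, açai and high fat, at -0.80, -1.01 and -0.84.

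The chips were compared in the same way. Of the 14 member probes, 1 differed between chips (limma F-test), the fainter Nr1d2 probe (adjusted p = 0.0204), beside 19% of all probes. Its livers on chip 3 deviated from their diet means by -0.44 on average, and those on the other chips by -0.01 to 0.17. The call was lost without bilberry replicate 3 (adjusted p = 0.0868) or low-fat replicate 3 (0.102), and 2 arrays left out in turn brought in Nr1d1, açai replicate 1 (0.0125) and high-fat replicate 5 (0.0356). Leaving out lingonberry replicates 1 or 2 brought in Tef (0.0499 and 0.0454), and leaving out lingonberry replicates 2, 3 or 4 a Ciart probe (0.0469, 0.0382 and 0.0209).

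Within a diet the clock genes spread more than most probes. The median SD within a diet was 0.485 over the 14 member probes and 0.470 over the brightest probe of each of 9 genes, and 0.231 over all tested probes. Ciart had the widest spread, 0.84, with 99.6% of all tested probes below it. Per1 (0.60), Per2 (0.57), Dbp (0.50), Arntl (0.47), Tef (0.45) and Nr1d1 (0.42) followed, and the 2 at the low end were Nr1d2 (0.28) and Per3 (0.26), with 75.4% and 67.5% of all probes below them. Against probes of a like level (within 0.5 log2 units), 98.7% were less spread than Arntl and 98.4% less than Dbp.

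**Figure D3:**
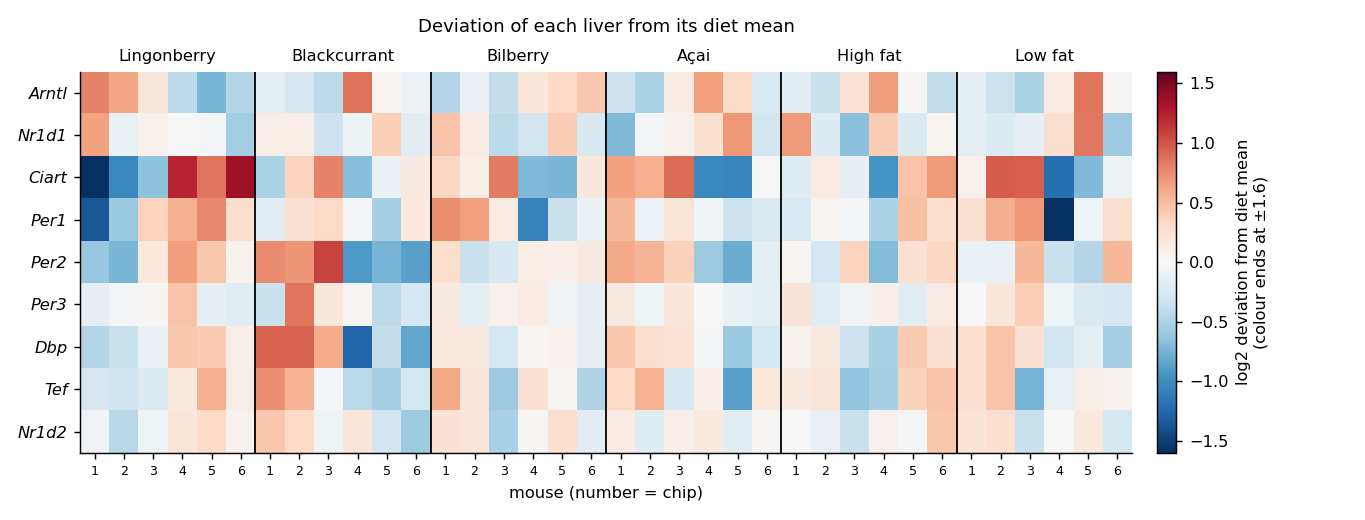
Deviation of each liver from its diet mean on the log2 scale (colour, ending at ±1.6) for 9 clock genes (rows) in the 36 livers (columns, by diet and chip number). Livers blue in Ciart are mostly red in Arntl, and the reverse, within each diet.

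Some of the members moved together or opposite to each other between livers of the same diet. After removal of the diet means, 12 of the 36 pairs of genes had a Pearson r of at least 0.5 in size, 7 of them positive and 5 negative, and the other 24 were smaller. Per3 was in none of the 12. Of the correlations between a member and any tested probe 2.04% were of that size, 1.04% positive and 1% negative. The median size of r was 0.406 over the pairs, beside 0.154 between members and all tested probes. A first principal component held 47.8% of the variance of the 9 genes and a second 20.0%. On the first, Arntl (-0.40) and Nr1d1 (-0.20) had the opposite sign to Dbp (0.41), Per2 (0.40), Ciart (0.40), Per1 (0.35), Tef (0.32), Per3 (0.23) and Nr1d2 (0.21). On the second, the largest weights were those of Nr1d2 (0.59) and Nr1d1 (0.51), which have the same sign there. Nr1d1 was near 0 with Per3 (r = -0.025), Tef (-0.0528) and Dbp (-0.112). In some diets the livers were ordered by replicate number: Arntl was high in replicates 1 to 3 on lingonberry and low in them on blackcurrant. Removing chip means cannot take out an order whose direction differs by diet. The part of this order in the correlations was not tested.

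The tightest pair was Arntl and Ciart, activator and repressor, with r = -0.808 and Spearman rho = -0.81 over 36 livers (permutation p = 1e-05 for each, the smallest that 100000 permutations can give). The sign was negative within 6 of 6 diets and within 6 of 6 chips, where r ran from -0.943 to -0.613, and r was -0.822 without the 2 livers farthest from the median of Arntl. For each log2 unit of Arntl, Ciart differed by -1.44 ± 0.18 (SE; limma, adjusted p = 1.13e-05 over all other probes), and the other 2 Ciart probes were called too. These calls held without each of the 36 arrays in turn.

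**Figure D4:**
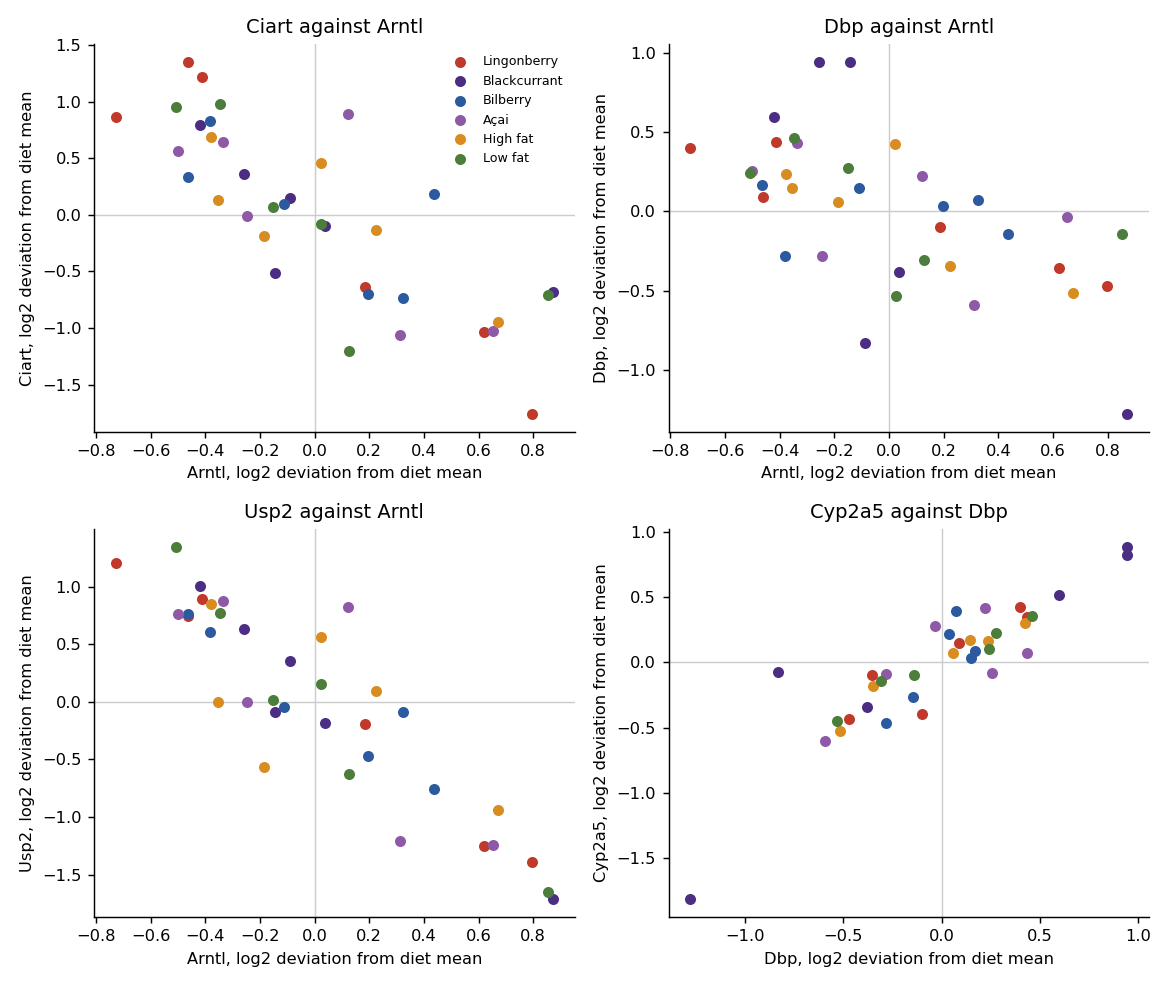
Deviations from the diet mean on the log2 scale in 36 livers, coloured by diet: Ciart, Dbp and Usp2 (y axes) against Arntl, and Cyp2a5 (y axis) against Dbp. Ciart, Dbp and Usp2 fall as Arntl rises (r = -0.808, -0.602 and -0.898), and Cyp2a5 follows Dbp (r = 0.884).

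Arntl and Dbp also ran opposite, with r = -0.602 (permutation p = 5e-05) and rho = -0.652 (permutation p = 1e-05, the smallest that permutations can give), a negative sign in 6 of 6 diets and 6 of 6 chips, and -0.544 without the 2 livers farthest from the median of Arntl. Blackcurrant replicate 4 weighs on this pair: it has the highest Arntl (5.75) and the lowest Dbp (9.73) of its diet, and without it r was -0.517 and the slope lost its call (adjusted p = 0.161, against 0.0294 with it). The call was also lost without lingonberry replicates 1, 2 or 5 (adjusted p = 0.0683, 0.0555 and 0.0538), blackcurrant replicate 3 (0.0566) or high-fat replicate 4 (0.0606). In the reverse fit, of Arntl on Dbp, the adjusted p was 0.0216, and it was lost without blackcurrant replicate 4 alone (0.172).

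Of the members' probes, 6 moved with Arntl in the fit over all probes, beside 0.452% of the other tested probes. All 6 ran opposite to it, beside 0.29% of the other probes, and they belonged to Ciart, Per2 and Dbp. Per2 differed by -0.75 ± 0.16 per log2 unit of Arntl (limma, adjusted p = 0.0199), with r = -0.617 (permutation p = 0.00016), rho = -0.582 (0.0004) and r = -0.559 without 2 livers. The sign of r was negative in 5 of 6 diets and 5 of 6 chips, and the highest r within a diet was 0.2535. Per2 lost its call without lingonberry replicates 1 or 2 (adjusted p = 0.0523 and 0.0555) or blackcurrant replicate 4 (0.0644), and its other probe, at 0.046, kept it in only 15 of the 36 fits that leave out 1 array, with adjusted p up to 0.136. With the chip as a block both Per2 probes and Dbp lost their calls (adjusted p = 0.134, 0.174 and 0.105) while the 3 Ciart probes kept them; r with the chip means removed was -0.583 for Per2 and -0.602 for Dbp, against -0.617 and -0.602 without this step. Per1 was short of the threshold at both probes (adjusted p = 0.0581 and 0.0542), with r = -0.566 at the brighter (permutation p = 0.00198; rho = -0.644, p = 0.00021), and passed it in 6 and 8 of the 36 fits without 1 array. Nr1d1 leaned the same way as Arntl, r = 0.396 (permutation p = 0.0256; rho = 0.328, p = 0.066), with a slope of 0.35 ± 0.14 that did not pass (adjusted p = 0.45). Tef (adjusted p = 0.26), Per3 (0.78) and Nr1d2 (0.952) did not pass.

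With Dbp, 5 member probes moved, beside 0.894% of the other tested probes. Per2 followed it by 0.86 ± 0.13 per log2 unit (limma, adjusted p = 8.49e-05; r = 0.762, permutation p = 0.00014; rho = 0.747, p = 0.00014) and Tef by 0.62 ± 0.12 (adjusted p = 0.00253; r = 0.682, permutation p = 3e-05; rho = 0.715, p = 2e-05). Both calls held without each array in turn, and r without the 2 livers farthest from the median was 0.721 for Per2 and 0.698 for Tef. The sign was positive for Per2 in 5 of 6 diets and 6 of 6 chips, and for Tef in 6 of 6 diets and 6 of 6 chips. The fainter Per1 probe followed as well (0.45 ± 0.10, adjusted p = 0.0227, and 0.053 without blackcurrant replicate 3), whereas the brighter one had an adjusted p of 0.232. Ciart was short of it (0.85 ± 0.24, adjusted p = 0.0874) and passed without blackcurrant replicates 1 or 6 (0.0197 and 0.0425). With the chip as a block, Per1 was no longer called (0.0643), and Nr1d2 (0.0452) and 2 Ciart probes (0.0427 and 0.0313) were.

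Other pairs joined the repressors and the outputs among themselves. Per1 and Ciart had r = 0.757 (permutation p = 1e-05, the smallest that permutations can give; rho = 0.765, with the same p), with a positive sign in 6 of 6 diets and 6 of 6 chips, and 0.689 without 2 livers. Per2 and Ciart had r = 0.588 (permutation p = 0.00035; rho = 0.576, p = 0.00067), positive in 5 of 6 diets and 6 of 6 chips, and 0.558 without 2 livers. Dbp and Ciart had r = 0.513 (permutation p = 0.00044; rho = 0.629, p = 0.00011), positive in 5 of 6 diets and 6 of 6 chips, and 0.554 without 2 livers. Ciart was thus positive with Per1, Per2 and Dbp. Nr1d2 and Dbp had r = 0.519 (permutation p = 0.00855; rho = 0.554, p = 0.00271), positive in 6 of 6 diets and 5 of 6 chips, and r = 0.45 without 2 livers. Without the chip as a block, the slopes of Nr1d2 and Dbp did not pass either way (limma, adjusted p = 0.113 on Dbp and 0.163 on Nr1d2). Nor did those of Dbp and Ciart (limma, adjusted p = 0.0874 on Dbp and 0.0712 on Ciart). Nr1d2 and Tef had r = 0.673 (permutation p = 7e-05; rho = 0.679, p = 7e-05), positive in 6 of 6 diets and 5 of 6 chips, and r = 0.66 without 2 livers. In the fit on Nr1d2, Tef was the only other member called (adjusted p = 0.0296; 0.0279% of all probes). The 2 REV-ERB genes had unlike values with Ciart. Nr1d1 and Ciart had r = -0.526 (permutation p = 0.00227; rho = -0.49, p = 0.0045; r = -0.469 without 2 livers), Nr1d2 and Ciart r = 0.0717 (permutation p = 0.683; rho = 0.131, p = 0.457), and Nr1d1 and Nr1d2 r = 0.259 (permutation p = 0.127; rho = 0.314, p = 0.0728). With chip means removed, r was -0.4265 for Nr1d1 and Ciart, 0.348 for Nr1d2 and Ciart, and 0.0629 for Nr1d1 and Nr1d2. The slopes of Nr1d1 and Ciart did not pass either way (limma, adjusted p = 0.151 on Nr1d1 and 0.0637 on Ciart). The difference between these correlations was not tested. In the fit on Nr1d1 no member was called, beside 0.00558% of all probes, and in the fit on Per3 none, beside 0% of all probes. In the fit on Ciart, Arntl, Per1 and Per2 were called (adjusted p = 4.93e-06, 7.01e-05 and 0.0181), beside 1.32% of all probes. These further fits were not repeated without single arrays.

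**Figure D5:**
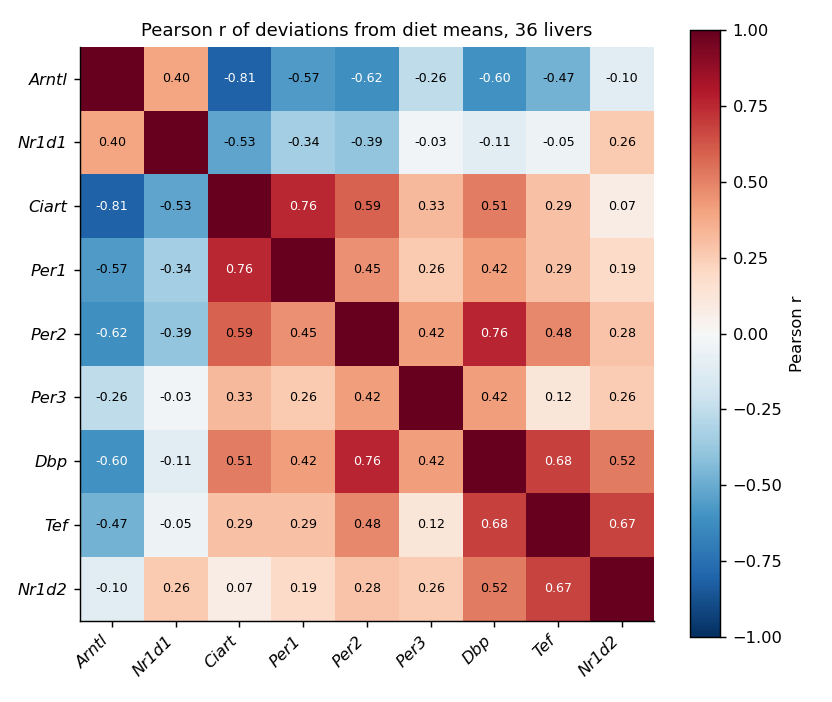
Pearson r between 9 clock genes (both axes) over 36 livers, computed on deviations from the diet means. Arntl is negative with Ciart, Per1, Per2, Dbp and Tef and positive with Nr1d1 (r = 0.396), and Dbp, Tef and Nr1d2 are positive with each other.

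The other genes of the loop were looked at as a list of 22, of which 19 were on the array and 14 tested: Clock, Cry2, Rora, Bhlhe40, Hlf, Timeless, casein kinases and others. By limma 0 of the 14 were called in any of the 15 diet comparisons, and between 0 and 4 had an unadjusted p below 0.05. With the chip as a block, Rora, the gene of a receptor that activates Arntl, was called lower on blackcurrant than on low fat (-0.52 ± 0.15, adjusted p = 0.0297, and 0.0543 without the block). Between high fat and low fat their median difference was -0.12, beside -0.0036 over all tested probes. With Dbp, 2 of the 14 moved, beside 0.894% of the other tested probes. Clock, the partner of ARNTL, ran opposite by -0.39 ± 0.063 per log2 unit (limma, adjusted p = 0.000336). Bhlhe40, the gene of the repressor DEC1, moved in the same direction by 0.37 ± 0.08 (limma, adjusted p = 0.0136). Cry2, a repressor that acts with the PER proteins, did not pass (0.32 ± 0.10, adjusted p = 0.165). With Arntl 0 of the 14 were called, beside 0.452% of the other tested probes. Clock had a slope of 0.30 ± 0.084 on Arntl (limma, adjusted p = 0.114).

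Liver genes known to follow the clock were taken as a list of 25, with 23 tested. With Arntl 6 of the 23 moved, all opposite to it, beside 0.29% of the other tested probes. Usp2, which encodes a deubiquitinase with isoforms under clock control, differed by -1.76 ± 0.15 per log2 unit (limma, adjusted p = 9.99e-10). Upp2, a uridine phosphorylase, differed by -1.28 ± 0.16 (limma, adjusted p = 1.13e-05) and Noct, the gene of nocturnin, by -0.88 ± 0.16 (0.00395). Alas1, the first enzyme of haem synthesis, differed by -1.06 ± 0.22 (limma, adjusted p = 0.0138), and Coq10b and Rgs16 were the others. The median r of the list with Arntl, in deviations from the diet means, was -0.40, beside -0.0020 over all tested probes. With Dbp 6 moved in the same direction and 1 in the opposite, beside 0.525% and 0.369% of the other tested probes. Cyp2a5, a cytochrome P450, rose by 0.90 ± 0.086 per log2 unit (limma, adjusted p = 4.24e-08). Elovl3, a fatty acid elongase, ran opposite by -0.60 ± 0.10 (limma, adjusted p = 0.000853). Cyp2a5 has close relatives in its gene family, and its probe may also take up their transcripts, which was not tested.

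Between high fat and low fat 4 of the 23 were higher and 3 lower, beside 1.97% and 1.35% of all tested probes. The list was chosen with earlier results of these data known, so such shares do not test it. Nr1i3, the gene of the receptor CAR, differed by 1.17 ± 0.18 (limma, adjusted p = 8.74e-05), Usp2 by 1.72 ± 0.48 (0.0379), Alas1 by 1.44 ± 0.42 (0.0447) and Cyp2a5 by 1.05 ± 0.27 (0.0224). Pnpla3, a lipase of lipid droplets, fell by 0.91 ± 0.14 on the log2 scale (4.64e-05), Elovl3 by 0.93 ± 0.23 (0.0137) and Avpr1a, a vasopressin receptor, by 0.97 ± 0.26 (0.03). Between açai and low fat 7 were higher and 3 lower, beside 3.79% and 2.67% of all tested probes, among them Cyp7a1, the rate-limiting enzyme of bile acid synthesis (2.71 ± 0.58, adjusted p = 0.00223). Nr1i3 and Pnpla3, called in both comparisons, were not called with Arntl (adjusted p = 0.895 and 0.998) or with Dbp (0.371 and 0.9). Usp2 and Cyp2a5 were called in both as well, on açai by 1.73 ± 0.48 (limma, adjusted p = 0.0232) and 0.89 ± 0.27 (0.0415). As given above, Usp2 moved with Arntl and Cyp2a5 with Dbp.

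Over all named probes, the genes whose deviations were most like those of a member were found by Pearson r over the 36 livers, and because they were picked for r, their values carry no test. Each gene is given by its probe with the largest r, which for Upp2 and Noct is another probe than the one in the list above. Usp2 ran most opposite to Arntl, r = -0.898 (rho = -0.863), and -0.867 without the 2 livers farthest from the median of Arntl. Upp2 (-0.805), Kcnk5 (-0.776), Klf13 (-0.763), Herpud1 (-0.759), Noct (-0.726), Pcsk4 (-0.707) and Tcim (-0.695) followed. Most like Arntl were Denn2b (0.758), Tgif1 (0.756), Itgb1bp1 (0.734), Cda (0.714), Chka (0.674), Asap2 (0.673), Osgin1 (0.663) and Sphk2 (0.663).

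Most like Dbp was Cyp2a5, r = 0.884 (rho = 0.847) and 0.906 without the 2 livers farthest from the median of Dbp. Ngef (0.861), Pcsk4 (0.821), Upp2 (0.759), Ghr (0.751), the growth hormone receptor, Slc9a3r1 (0.748), Slc46a3 (0.745) and Abcg8 (0.735), a sterol exporter, followed. Most opposite to Dbp were Crip2 (-0.817), Lrfn3 (-0.806), Fgf21 (-0.794), a fasting hormone made by the liver, Clock (-0.779), Nedd4l (-0.749), Denn2b (-0.740), Sphk2 (-0.731) and Ovca2 (-0.725). Denn2b and Sphk2 thus stood among the genes most like Arntl and most opposite to Dbp, and Pcsk4 and Upp2 the other way round. Denn2b entered both lists by the same probe, and Sphk2, Pcsk4 and Upp2 by different probes. Arntl and Dbp were themselves opposite over the same livers, so the lists are not independent.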

How the data were processed

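RNA from 36 mouse livers, 6 per diet, was hybridized to 1-colour beadchips. The authors deposited a raw intensity and a detection p-value for each probe and array, and a table of processed log2 values. The software behind the deposited intensity and p-value, and the steps behind the deposited log2 table, are not stated in the sources used here. The neqc function of limma (version 3.58.1, R version 4.3.3, tables read with data.table version 1.17.8) corrected the intensities for background through the detection p-values, with an offset of 16, then normalized them by quantiles to log2 values. The authors' log2 values differed from these by at most 0.0115 for the member probes. Probes with a detection p-value below 0.05 on at least 6 arrays were tested, 17907 of 45281; 974 control entries were left out.

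Differences came from lmFit on all 36 arrays with a mean per diet, contrasts and eBayes, two-sided, and slopes from a fit with the diet means and the level of 1 gene. Benjamini-Hochberg adjustment ran over all tested probes, and a call is an adjusted p below 0.05. Correlations were computed on deviations from diet means, with 100000 permutations within diets, over 36 pairs; the adjusted p of the slope fits stands for their correction. A gene with several probes enters pairs by the probe with the highest mean. Genes named are all members, up to 4 called genes per list and comparison with the smallest p, and the 8 most like and 8 most opposite to Arntl and to Dbp; Coq10b, Rgs16 and Cry2, genes given for not passing, and other list genes beyond this were named after their values were seen. The members and lists were chosen with earlier results of these data known. Symbols came from the platform annotation, updated through a RefSeq table (GRCm38.p6): 34885 probes have 1 symbol, 18 several and 10378 are not listed. Promoter windows are from RefSeq, build GRCm38.p6. Fits were also run on simulated data with independent noise per probe and no chip effect, which cannot speak for the chip differences found here. Correlations and figures used Python (version 3.11.15) with numpy (2.4.6), pandas (2.3.3) and matplotlib (3.10.9).

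The replicate number is the chip, as the array names in the labels show. Deviations of arrays on the same chip had a median correlation of 0.107 (90 pairs), and those on different chips -0.0528 (540 pairs). The chip as a replicate block, other background corrections, the authors' log2 table, all probes, trend and robust variances, array weights, fits to the arrays of the 2 diets, and each array left out were tried as alternatives. For arrays, their number limits the precision.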

Additional observations from a re-analysis of the deposited data

Results flagged for a closer look

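In 4 of 84 groups of 6 livers (a member probe in a diet) the highest or lowest liver stood apart from the other 5 by more of the range than Dixon's critical value allows; chance gives about 1 in 20 such groups. Arntl in blackcurrant replicate 4 was 5.75, and the other livers of the diet lay between 4.46 and 4.92. Per1 in low-fat replicate 4 was 4.7, with the others between 6.29 and 7.06. Per3 in lingonberry replicate 4 was 4.93, with the others between 4.3 and 4.49. The fainter Nr1d2 probe in bilberry replicate 3 was 5.49, with the others between 6.19 and 6.51.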

How the results depend on the processing

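No called difference, slope or correlation listed with its alternatives changed direction. Pairs near 0 did: Nr1d2 and Ciart (r = 0.0717) stood at -0.00746 without lingonberry replicate 2, Per3 and Tef (0.12) at -0.0602 and Nr1d1 and Tef (-0.0528) at 0.055 without 2 livers, and Nr1d1 and Per3 (-0.025) at 0.0888 with chip means removed. With all probes tested, 0 member probes were called for any diet difference, high fat against low fat and blackcurrant against low fat (1 each otherwise), 3 moved with Arntl (6 otherwise) and 3 with Dbp (5 otherwise). Array weights gave 0 for any chip difference and for blackcurrant against low fat. Fits to the arrays of the 2 diets gave 0 for high fat against low fat and for blackcurrant against low fat, and 2 for lingonberry against high fat (0 otherwise). Without background correction 3 moved with Arntl. The chip as a replicate block gave 1 for lingonberry against high fat, 2 for açai against low fat, 1 for açai against lingonberry and 3 moving with Arntl; for member probes it changed no call beyond these and those given with the results. Among the liver genes that follow the clock it gave 5 higher for high fat against low fat (4 otherwise) and 9 for açai against low fat (7 otherwise). For blackcurrant against low fat it gave 5 higher and 4 lower (5 and 2 otherwise), and for açai against lingonberry 2 higher (0 otherwise). It gave 2 lower for bilberry against high fat (1 otherwise), and 1 higher for açai against blackcurrant and blackcurrant against bilberry (0 otherwise). The share of all probes called, in either direction, rose under the block as well. In these comparisons in turn the share was 5.86% (3.31% otherwise), 10.2% (6.47%), 4.15% (2.31%), 5.25% (3.35%), 0.609% (0.38%), 3.19% (1.76%) and 0.424% (0.212%). Leaving out each array in turn gave 3 to 8 moving with Arntl, 4 to 7 with Dbp, 0 to 3 for chips, 1 to 1 for any diet difference, 0 to 1 for high fat against low fat, blackcurrant against low fat and açai against lingonberry, 0 to 2 for lingonberry against high fat, 1 to 2 for açai against low fat, and 0 to 0 for the other comparisons. Pairs of size 0.5 or more numbered 10 to 14, against 12. Causes of these changes were not tested. With all probes tested, more probes were adjusted over and the variances were estimated anew, and the part of each was not tested. Without background correction Nr1d1 differences shrank to -0.35 for high fat and -0.41 for açai against low fat. Low signal limits Arntl (detected on 27 of 36 arrays), Per3 (6 of 36) and Npas2 (0 of 36).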

Other observations

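Genes of feeding and fasting, a list of 12 with 10 tested, were set beside the clock genes. This list, too, was chosen with earlier results of these data known. Between high fat and low fat 4 of the 10 were called, all lower, beside 1.35% of all tested probes: Igfbp1, a growth factor binding protein induced in fasting, fell by 1.79 ± 0.32 on the log2 scale (limma, adjusted p = 0.000658), G6pc, the last enzyme of glucose output, by 1.61 ± 0.22 (1.04e-05), Acly, an enzyme of fat synthesis, by 1.01 ± 0.15 (3.75e-05), and Irs2, an insulin signalling adaptor, by 0.87 ± 0.21 (0.0133). None of these 4 was called with Arntl or with Dbp in the fits within diets (adjusted p of at least 0.477). Fgf21 was called with both, by 1.18 ± 0.28 per log2 unit of Arntl (adjusted p = 0.0461) and by -1.52 ± 0.20 per log2 unit of Dbp (8.65e-06). Srebf1, the gene of a regulator of fat synthesis, moved with Dbp by 0.64 ± 0.11 (adjusted p = 0.00107).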
